A study of Mus musculus with 444 samples.

Results

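Keratins are the intermediate filament proteins of epithelial cells. A filament is built from heterodimers of one type I and one type II keratin. The genes of the types lie in separate clusters of the mouse genome, apart from the type I gene Krt18, which lies beside Krt8. In the mammary gland, Krt5 (type II) with its partner Krt14 (type I) marks the outer basal or myoepithelial layer, and Krt17 and Krt15 are further type I keratins of basal epithelia. Krt8 (type II) with its partner Krt18 (type I) makes up the filaments of simple epithelia, including the luminal cells that line the ducts, where Krt19 (type I) and Krt7 (type II) are also used.

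The levels of 8 keratin genes, 4 basal (Krt5, Krt14, Krt17 and Krt15) and 4 luminal (Krt8, Krt18, Krt19 and Krt7), were examined in single mammary epithelial cells. The genes were chosen by name and matched by Entrez gene identifier, and they are 8 of the 25136 genes used. The cells came from FVB/NJ mice at puberty or in adulthood, with no treatment, and were labelled as total epithelium. They were captured on the Fluidigm C1 microfluidic system after sorting of CD24-positive cells negative for blood and endothelial markers, from pooled animals. Of 221 pubertal and 223 adult cells, 171 and 152 held at least 100000 read pairs and 1500 genes. Retained cells had a median of 309941 read pairs in puberty (101471 to 1354378) and 331034 in adults (100883 to 1049746).

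Each deposited sample is 1 cell, and the labels name no animal, sort or capture chip. Each stage was therefore treated as 1 sample: no test between stages was possible, all intervals are exact 95% intervals that cover counting error only, and "higher" or "lower" describes these cells. The libraries carry no molecular identifiers, so read pairs are not independent molecules. Each cell was thinned to 100000 read pairs, so that 1 read equals 10 CPM (counts per 1000000), and a keratin was called detected from 10 CPM. The adult cells were not uniform. All 107 retained adult cells numbered 48 to 188 in the labels held reads of Rn7sk, a small nuclear RNA, against 8 of the other 45 adult cells and 35 of 171 pubertal cells, so adult values are given for the separate runs where these differ. A run here is a group of label numbers and not a known batch, and the labels do not say what separates these runs. The other adult cells are those numbered below 48 or above 188. They are not a single block of numbers but were pooled. Whether the cells below 48 and those above 188 differ was not tested.

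Type I and type II genes are not fully separated by position. On the GRCm38.p6 (mm10) reference, the type I genes Krt15 (100131759 to 100135949), Krt19 (100140810 to 100145926), Krt14 (100203162 to 100207510) and Krt17 (100256215 to 100261029) lie on chromosome 11. The type II genes Krt7 (101412403 to 101427806), Krt5 (101707069 to 101712905) and Krt8 (101996711 to 102004342) lie on chromosome 15, and so does the type I gene Krt18 (102028216 to 102032026), which is transcribed away from Krt8 with 23874 bases between their starts. Krt8 and Krt18 had the highest correlation of the luminal pairs in puberty, at 0.75, narrowly above Krt8 with Krt19 at 0.74. They were not the highest luminal pair in either adult run. The 250 bases upstream of the Krt8 and Krt18 starts are shown with those of Krt5, a basal gene of the same cluster. The bases come from RefSeq, in the reference strain and not FVB/NJ, and are written 5′ to 3′ on the strand of the gene. The Krt5 stretch is chr15:101712906-101713155 (minus strand), the Krt8 stretch chr15:102004343-102004592 (minus strand) and the Krt18 stretch chr15:102027966-102028215 (plus strand). Capitals mark matches to 1 of 4 motifs searched on both strands.
Krt5: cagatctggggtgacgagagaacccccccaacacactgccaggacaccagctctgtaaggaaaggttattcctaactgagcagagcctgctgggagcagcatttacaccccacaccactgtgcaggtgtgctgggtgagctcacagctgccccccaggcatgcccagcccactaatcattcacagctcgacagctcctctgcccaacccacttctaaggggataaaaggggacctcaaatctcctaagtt
Krt8: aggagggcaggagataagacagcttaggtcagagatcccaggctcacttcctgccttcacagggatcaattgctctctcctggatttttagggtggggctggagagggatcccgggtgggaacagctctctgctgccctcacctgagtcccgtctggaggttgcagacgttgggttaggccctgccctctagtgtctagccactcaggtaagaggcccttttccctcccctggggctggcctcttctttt
Krt18: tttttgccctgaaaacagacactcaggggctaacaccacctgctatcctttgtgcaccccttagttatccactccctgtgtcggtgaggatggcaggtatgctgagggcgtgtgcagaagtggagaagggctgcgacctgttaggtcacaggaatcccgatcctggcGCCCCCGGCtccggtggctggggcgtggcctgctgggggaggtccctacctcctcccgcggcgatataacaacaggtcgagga

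The motifs were TATAAA (the TATA box), GGGCGG (the GC box), TGANTCA (AP-1) and GCCNNNGGC (AP-2). They occurred in 12.4%, 32.7%, 6.75% and 13.7% of 32851 RefSeq promoter stretches of the same length. The only match in the 3 stretches was an AP-2 motif 83 to 75 bases before the Krt18 start. Krt7, whose stretch was also searched, held 4 GC boxes and 2 AP-2 motifs, and 1 of the GC boxes overlapped 1 of the AP-2 motifs. A match is only a run of letters, and its absence says nothing about the factor. The RefSeq entry of Krt14 lies inside the gene and was not used, and Krt17, Krt15 and Krt19 had no entry.

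Keratin reads could in part come from related genes. Of all 75-base windows of the longest annotated transcript, 22.0% of those of Krt8 also occurred in the pseudogene Krt8-ps, 5.91% of those of Krt14 in Krt16 and 5.18% of those of Krt5 in Krt6a, Krt6b, Gm5414 or Gm5478. Krt17, Krt15, Krt18, Krt19 and Krt7 shared no such window with another gene. The level of Krt8 is the most uncertain of the 8 in this respect.

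The first question was how the basal keratins differed between stages. All 4 had higher summed levels in the adult cells, by a median log2 ratio of puberty over adult of -1.86, where the median of all 7806 genes that reached 20 CPM in a stage was 0.09. All 4 were past 2-fold in that direction, as were 14.3% of all genes, while 19.9% of all genes were past 2-fold higher in puberty. Without the cells that held 2 fibroblast markers, Krt15 was at -0.92 and no longer past 2-fold. For Krt17 the direction rested on the adult cells 48 to 188: its log2 ratio was -2.62 against those and 0.27 against the other adult cells. The summed levels mix the level per cell with the make-up of each stage. Basal-marker cells, defined below, were 29.8% of pubertal and 64.5% of adult cells. Within them the ratios of the 4 genes ran from -1.59 to -0.47. How far the make-up sets the ratios over all cells was not tested.

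Krt14, a type I keratin of basal cells, was detected in 46.8% (39.1 to 54.5) of pubertal cells, 93.5% (87.0 to 97.3) of adult cells 48 to 188 and 71.1% (55.7 to 83.6) of the other adult cells. Its level per cell ran from 0 to 5790 CPM in puberty with a median of 0, from 0 to 21970 CPM with a median of 1210 in adult cells 48 to 188, and from 0 to 6970 CPM with a median of 30 in the other adult cells. The groups overlapped over most of their range, and 1 read (10 CPM) lies close to the last of these medians. Its log2 ratio of puberty over adult was -2.40 (-2.44 to -2.36), or -2.73 and -1.06 against the separate adult runs.

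Krt5, the type II partner of Krt14, was detected in fewer cells than Krt14 in each of the 3 groups. It was found in 33.3% (26.3 to 40.9) of pubertal cells, 82.2% (73.7 to 89.0) of adult cells 48 to 188 and 35.6% (21.9 to 51.2) of the other adult cells. The share in the other adult cells was thus close to that in puberty. The medians were 0, 50 and 0 CPM, with highest values of 1150, 2460 and 2040 CPM. The log2 ratio was -1.52 (-1.64 to -1.44), and -1.60 and -1.33 against the separate runs.

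Krt17, a type I keratin also induced in stressed epithelia, was detected in 34.5% (27.4 to 42.1) of pubertal cells, 87.9% (80.1 to 93.4) of adult cells 48 to 188 and 60.0% (44.3 to 74.3) of the other adult cells. Medians were 0, 820 and 10 CPM and highest values 8580, 17470 and 7410 CPM. In the other adult cells a single cell held 48.9% of all Krt17 reads. The share of detecting cells was thus higher there than in puberty although the summed level was not.

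Krt15, a type I keratin of basal and progenitor cells in several epithelia, was the least often detected basal keratin in all 3 groups. It was found in 19.3% (13.7 to 26.0) of pubertal cells, 50.5% (40.6 to 60.3) of adult cells 48 to 188 and 17.8% (8.00 to 32.1) of the other adult cells. Medians were 0, 10 and 0 CPM and highest values 2290, 2880 and 2650 CPM. A few cells set its sums: 1 cell held 26.0% of its pubertal reads and 1 cell 55.7% of those in the other adult cells.

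**Figure D1:**
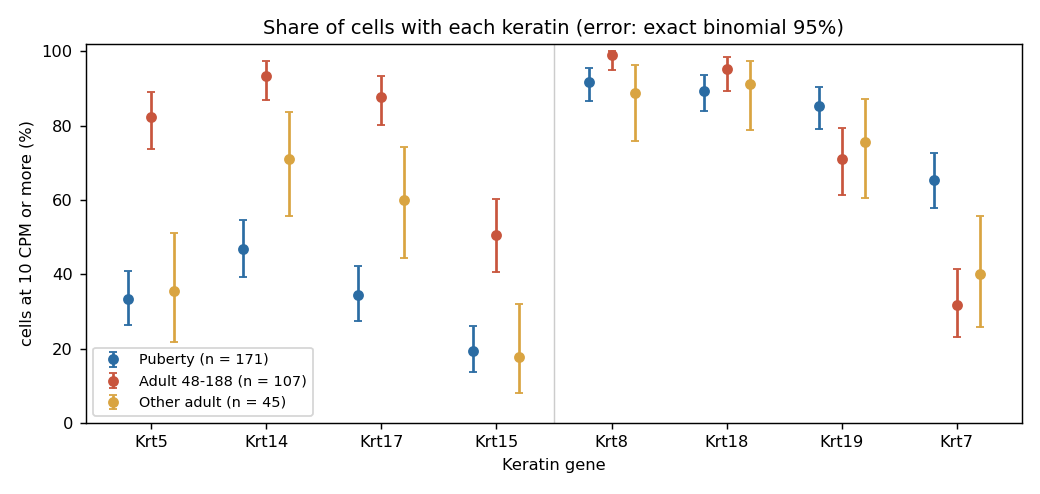
Share of retained cells (%) with each keratin at 10 CPM or more in puberty (n = 171), adult cells 48 to 188 (n = 107) and the other adult cells (n = 45). Error bars are exact binomial 95% intervals. The basal keratins lie highest in adult cells 48 to 188, and Krt7 highest in puberty.

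The luminal keratins differed less. Krt8 and Krt18 were detected in nearly all cells of both stages with nearly equal sums when all adult cells were pooled. Krt19 and Krt7 were higher in puberty. Against the pooled adult cells the median log2 ratio of the 4 genes was 0.35, and none was past 2-fold in either direction. Krt7 came closest there, at 0.96 (0.89 to 1.03), and was at 1.01 when the thinning was drawn with another random seed. The median was 0.30 against adult cells 48 to 188 and 0.72 against the other adult cells. Krt18 was at -0.38 and 1.12 against these, so it was past 2-fold against the other adult cells alone.

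Krt8, the type II keratin of simple epithelia, was detected in 91.8% (86.6 to 95.5) of pubertal cells, 99.1% (94.9 to 100.0) of adult cells 48 to 188 and 88.9% (76.0 to 96.3) of the other adult cells. Its medians were 1220, 720 and 500 CPM, and its highest values 11180, 10740 and 6080 CPM. Its summed level gave a log2 ratio of -0.06, with -0.24 and 0.51 against the separate adult runs, so the direction depended on the run.

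Krt18, its type I partner, was detected in 89.5% (83.9 to 93.6), 95.3% (89.4 to 98.5) and 91.1% (78.8 to 97.5) of the same groups. Medians were 2610, 1260 and 1320 CPM, and highest values 27490, 37170 and 6870 CPM. The log2 ratio was -0.07, with -0.38 and 1.12 against the separate adult runs. The median per cell was thus higher in puberty although the summed levels were nearly the same.

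Krt19, a type I keratin of luminal cells, was detected in 85.4% (79.2 to 90.3) of pubertal cells, 71.0% (61.5 to 79.4) of adult cells 48 to 188 and 75.6% (60.5 to 87.1) of the other adult cells. Medians were 960, 100 and 180 CPM and highest values 11480, 4370 and 5730 CPM. Its log2 ratio was 0.75, with 0.84 and 0.57 against the separate adult runs, the same direction in both.

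Krt7, a type II keratin of ductal epithelia, had the largest difference in detection among the luminal keratins. It was found in 65.5% (57.9 to 72.6) of pubertal cells, 31.8% (23.1 to 41.5) of adult cells 48 to 188 and 40.0% (25.7 to 55.7) of the other adult cells. Medians were 50, 0 and 0 CPM and highest values 5960, 1810 and 1660 CPM. The log2 ratio was 1.00 against adult cells 48 to 188 and 0.87 against the others.

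**Figure D2:**
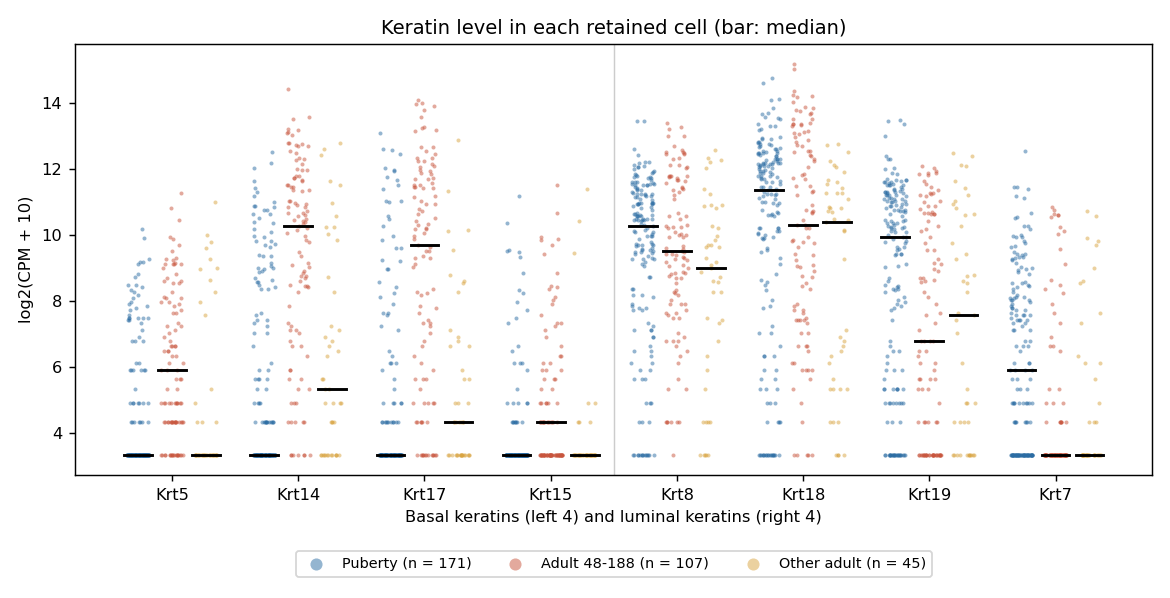
Level of each keratin in each retained cell as log2(CPM + 10), for puberty (171 cells), adult cells 48 to 188 (107 cells) and the other adult cells (45 cells). Each point is 1 cell and each bar a median; the row of points at the bottom holds the cells with no read. Krt14 medians are 0, 1210 and 30 CPM and Krt8 medians 1220, 720 and 500 CPM.

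Without thinning, counting any read as detection, the order of the groups was kept except for Krt15, Krt18 and Krt19. Krt14 was then found in 59.1% of pubertal cells, 98.1% of adult cells 48 to 188 and 88.9% of the other adult cells, and Krt7 in 77.2%, 37.4% and 44.4%. Krt18 was found in 95.3%, 99.1% and 91.1% of them. From 100 CPM upward, Krt14 was found in 31.0%, 77.6% and 37.8% of the 3 groups.

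Levels of different keratins were compared as summed CPM per kilobase of counted transcript. In puberty the order was Krt18 (2579), Krt19 (1034), Krt8 (882), Krt17 (269), Krt14 (219), Krt7 (197), Krt5 (30.0) and Krt15 (29.9 CPM per kilobase). The counting intervals of Krt5 (28.2 to 31.8) and Krt15 (28.0 to 32.0) overlapped, while those of other neighbours did not. In adult cells 48 to 188 Krt18 (3353) was followed by Krt17 (1657), Krt14 (1453), Krt8 (1044), Krt19 (579), Krt7 (98.7), Krt5 (91.8) and Krt15 (69.4). There the intervals of Krt7 (94.0 to 103) and Krt5 (87.9 to 95.7) overlapped. In the other adult cells the order was Krt18 (1184), Krt19 (696), Krt8 (619), Krt14 (458), Krt17 (223), Krt7 (108), Krt5 (75.8) and Krt15 (61.5). Krt18 thus led in all groups and Krt5 and Krt15 came last. Within single cells, Krt18 was the highest keratin per kilobase in 60.6% of the cells with a keratin read in puberty and 44.7% in adults, Krt14 in 11.8% and 23.7%, and Krt17 in 10.6% and 21.1%. For Krt17 the adult share was 26.2% in cells 48 to 188 and 8.89% in the others, so its direction depended on the run, while Krt14 (23.4% and 24.4%) and Krt18 (44.9% and 44.4%) were alike in both. Krt5 was the highest in no cell of either stage.

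Summed over the 8 genes, type I keratins exceeded type II keratins per kilobase in nearly all cells. The list holds more type I genes (Krt14, Krt17, Krt15, Krt18 and Krt19) than type II genes (Krt5, Krt8 and Krt7), which favours type I in these sums. Keratins outside the list, such as Krt6a, were not counted. Among cells with at least 10 reads of the 8 genes, type II genes made up a median of 20.4% (quartiles 11.5 and 28.6) of the summed keratin level per kilobase in 166 pubertal cells and 13.6% (6.0 and 23.7) in 148 adult cells. Type I was the higher type in 159 and 142 of these cells. The adult share was 10.5% in 107 cells of the run 48 to 188 and 20.0% in 41 others, so the latter were close to puberty. The partners were unequal to different degrees. Krt5 was a median of 7.0% of Krt5 plus Krt14 in 60 pubertal cells and 5.1% in 103 adult cells, while Krt8 was 28.2% of Krt8 plus Krt18 in 148 pubertal cells and 30.3% in 138 adult cells. In the runs 48 to 188 and other, Krt5 was at 4.52% and 10.1% and Krt8 at 27.9% and 33.9%, so the order of the stages turned with the run for both. These are shares of counted reads per length in amplified cDNA and not of protein.

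The next question was how the keratins followed lineage, using markers outside the list. A cell was called basal-marker when the share detected of 12 basal markers, such as Acta2, Myh11 and Trp63, exceeded that of 12 luminal markers, such as Epcam, Cldn3 and Elf3, by at least 0.2, luminal-marker when it was lower by as much, and between otherwise. This gave 51 basal-marker, 43 between and 77 luminal-marker cells in puberty and 98, 41 and 13 in adults. Only 2 of the 13 adult luminal-marker cells belonged to the run 48 to 188, so adult luminal values rest on few cells. That run held 76 basal-marker and 29 between cells. Its between cells had a median of 7 of the 12 basal markers, against 6 in pubertal and 5 in the other adult between cells. Pubertal luminal-marker cells had a median of 1. The between cells are a range of the marker difference and not a type, and 23 of the 43 in puberty and 16 of the 41 in adults lay within 0.05 of a limit.

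In puberty the 8 keratins all followed the marker classes. Each basal keratin was past 2-fold higher in basal-marker than in luminal-marker cells, and each luminal keratin past 2-fold lower, where 25.1% and 24.7% of 7835 genes were past 2-fold in these directions. The log2 ratios were 7.99 for Krt14, 4.80 for Krt15, 4.23 for Krt5 and 2.88 for Krt17, and -1.97 for Krt8, -2.39 for Krt18, -2.43 for Krt7 and -2.61 for Krt19. On this scale the basal keratins were thus further apart between classes than the luminal keratins. Few luminal-marker cells set the basal values. A single cell held 54.5% of the Krt17 reads of that class, 96.8% of the Krt5 reads and 55.6% of the Krt15 reads. The order among the basal keratins therefore depends on single cells.

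Luminal keratins were also found in basal-marker cells. Krt8 was detected in 78.4% (64.7 to 88.7) of the 51 pubertal basal-marker cells and reached 100 CPM in 54.9% of them, and Krt18 in 68.6% and 43.1%. Their medians there were 130 and 40 CPM, against 1980 and 4480 CPM in luminal-marker cells. Krt19 was detected in 56.9% and Krt7 in 31.4% of the pubertal basal-marker cells. In adults, Krt8 was detected in 98.7% (92.9 to 100.0) of the 76 basal-marker cells of the run 48 to 188 and in 77.3% (54.6 to 92.2) of the other 22, with medians of 550 and 165 CPM. In all adult basal-marker cells the means of Krt8 and Krt18 (1224 and 2369 CPM) lay above their medians (455 and 350 CPM), as they did in puberty (592 and 1014 CPM), so high cells carried much of the sums. Luminal keratins in cells with basal markers were therefore seen in all groups, below their level in luminal-marker cells. Some basal-marker cells held mostly luminal keratin reads. Basal genes made up under 1% of the keratin reads in 2 pubertal, 4 adult 48 to 188 and 2 other adult ones. They made up 1 to 10% in 4, 8 and 2 more. Of 6 luminal comparison genes in puberty, Plac8 (log2 ratio -0.37) and Ptn (-1.70) were less far apart between classes than Krt8. Ly6d, Trf, Lgals3 and Wfdc2 were further apart. The cause was not tested.

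The reverse was less frequent in puberty. At least 1 basal keratin was detected in 17 of the 77 luminal-marker cells (22.1%, 13.4 to 33.0), and reached 100 CPM in 3 of them. Krt14 was detected in 14.3% (7.35 to 24.1) of the 77 luminal-marker cells, with a highest value of 40 CPM. Counting any read before thinning, it was found in 28.6% of the same cells. With a cut of 10 CPM on unthinned counts, for the markers too, Krt14 was detected in 3.75% of the cells then called luminal-marker. It reached 100 CPM in 0 of 77, which allows a share of up to 3.90% when 3 cells are taken as the limit of a count of 0 (4.68% by the exact interval). Median depth before thinning was 298294 read pairs in these cells and 331153 in basal-marker cells. Krt5 was detected in 3 of the 77, Krt15 in 5 and Krt17 in 8. Krt17 reached 100 CPM in 3 of these cells, with a highest value of 5620 CPM in a cell with more progenitor than mature luminal markers. Another of the 3 held 4000 CPM of Krt17 with 600 CPM of Krt5. The source of these reads was not tested.

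Within the pubertal luminal-marker cells, 64 held a larger share of mature luminal markers (such as Prlr, Esr1 and Pgr) and 10 a larger share of luminal progenitor markers (such as Elf5 and Kit). Krt8 and Krt18 were detected in all of both. Median levels in mature and progenitor cells were 2045 and 1750 CPM for Krt8, 4590 and 2455 CPM for Krt18, 2055 and 935 CPM for Krt19, and 205 and 25 CPM for Krt7. Krt7 was detected in 89.1% (78.8 to 95.5) of the mature and 60.0% (26.2 to 87.8) of the progenitor cells, so the intervals overlapped.

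In adult cells the classes depended on how markers were counted. Counting markers from 100 CPM, an alternative chosen after seeing the data, gave 83 basal-marker and 32 luminal-marker adult cells, 16 of the latter in each run. Krt14 was then detected in 62.5% (35.4 to 84.8) of the 16 luminal-marker cells of the run 48 to 188, 56.2% (29.9 to 80.3) of the 16 other adult ones and 15.1% (7.77 to 25.4) of the 73 pubertal ones. Its medians were 10, 10 and 0 CPM, which is at or below 1 read, and only 1 of the 32 adult cells reached 100 CPM. Postn, a secreted matrix protein gene and 1 of 6 basal comparison genes, was detected in 15, 14 and 8 of the same cells. Postn does not stand for all 6. Values of the other genes in these adult cells are not given here, so its pattern cannot be extended to basal genes as a set. For puberty, mean levels in luminal-marker cells with markers counted from 10 CPM were 39.7 CPM for Postn and 155 CPM for Nrg1. Pdpn was at 11.0, Dkk3 at 1.30, Wif1 at 0.13 and Igfbp2 at 0 CPM. Whether the Krt14 and Postn reads came from the cells themselves was not tested. With markers counted from 10 CPM, Krt17 was detected in 1 of 13 adult and 8 of 77 pubertal luminal-marker cells and Krt15 in 1 and 5.

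**Figure D3:**
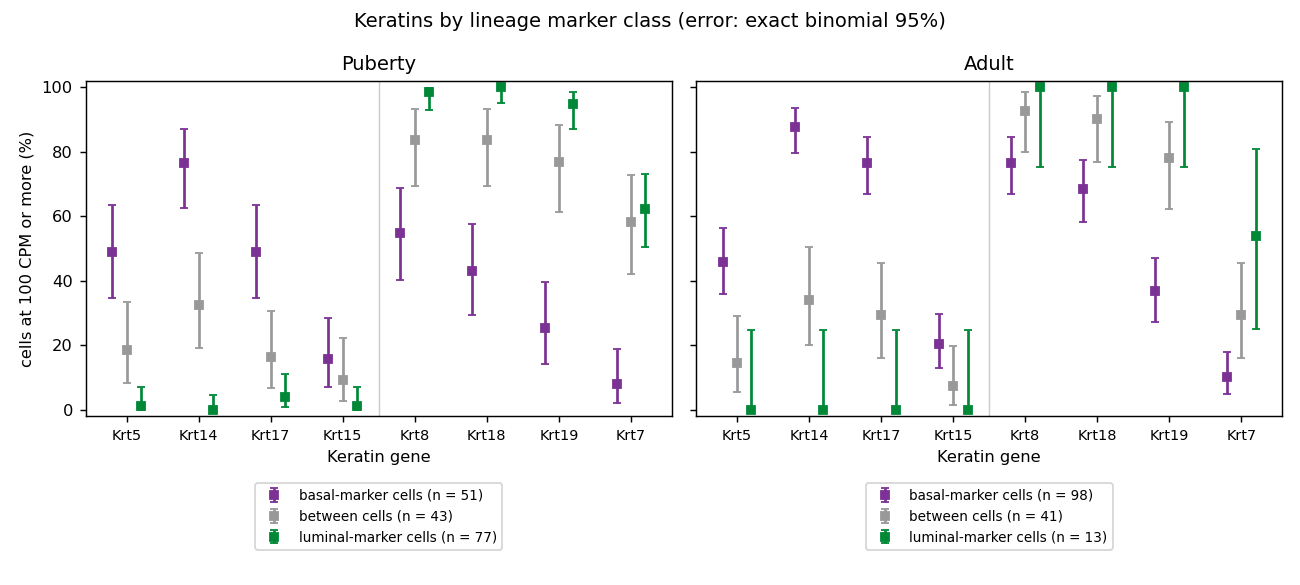
Share of cells (%) with each keratin at 100 CPM or more in basal-marker, between and luminal-marker cells of puberty and adults (both runs pooled), with exact binomial 95% intervals. In puberty, Krt14 is at 76.5% in basal-marker and 0% in luminal-marker cells, and Krt8 at 54.9% and 98.7%.

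Within the basal-marker cells, the adult levels of Krt14 and Krt17 were higher than the pubertal ones, with log2 ratios of puberty over adult of -1.59 and -1.45. Against the runs 48 to 188 and other, Krt14 gave -1.77 and -0.68, and Krt17 -1.74 and 0.58. Krt5 (-0.67) and Krt15 (-0.47) differed less, at -0.57 and -0.99 for Krt5 and -0.36 and -0.79 for Krt15 against the separate runs. Krt8 (-1.05) and Krt18 (-1.22) were also higher in the adult basal-marker cells, but against the other adult cells alone they were 0.31 and 0.18. These ratios compare means, to which a few high cells gave much. Medians of Krt8 and Krt18 were 130 and 40 CPM in puberty and 455 and 350 CPM in adults. In the other adult cells they were 165 and 65 CPM, above puberty, where the means were below it.

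Basal and luminal keratins were often detected in the same cell. At least 1 gene of each kind was found in 54.4% (46.6 to 62.0) of pubertal cells, 99.1% (94.9 to 100.0) of adult cells 48 to 188 and 75.6% (60.5 to 87.1) of the other adult cells. At 100 CPM the shares were 29.2% (22.6 to 36.7), 77.6% (68.5 to 85.1) and 31.1% (18.2 to 46.7), so the other adult cells were close to puberty at that level. Of the pubertal cells, 71 held luminal keratins alone, 6 basal keratins alone and 1 neither. How many of the cells with both kinds held a single cell's RNA was not tested. No doublet caller was run.

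The balance between the kinds varied widely. Of the 93 pubertal cells with both kinds, 46 lay from 10 to 90% basal reads. The basal genes made up under 1% of the reads of the 8 keratins in 54.7% of the 170 pubertal cells with a keratin read, 10 to 90% in 27.1% and 90% or more in 9.41%. In adult cells 48 to 188 the shares were 19.6% of cells under 1%, 43.9% from 10 to 90%, and 24.3% at 90% or more. In the other adult cells, 40.0% were under 1% and 31.1% from 10 to 90%. The median basal share was 0.24%, 55.2% and 6.58% in the 3 groups. Among pubertal basal-marker cells, 29 of 51 lay from 10 to 90%, against 3 of 77 luminal-marker cells.

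**Figure D4:**
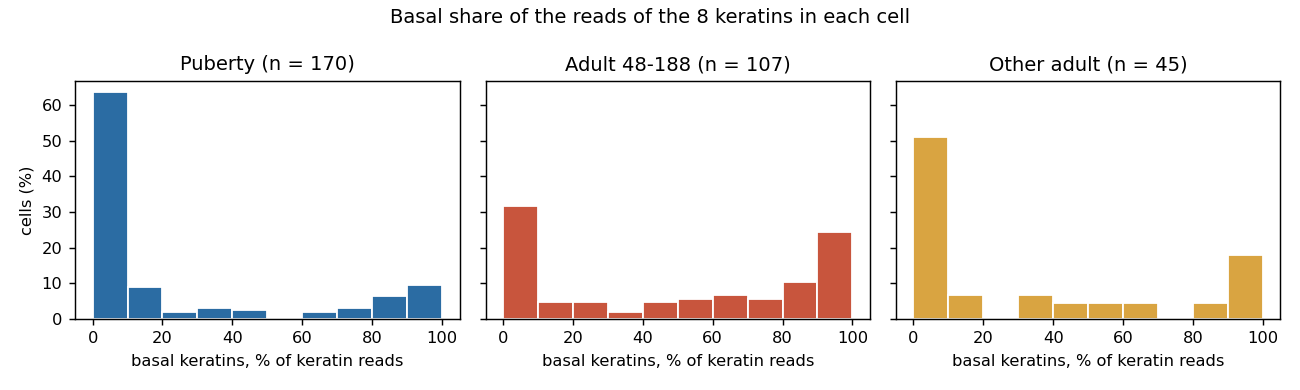
Basal keratin reads as a percentage of the reads of all 8 keratins in each cell (x axis, bins of 10%), as a share of cells (%), for 170 pubertal cells, 107 adult cells 48 to 188 and 45 other adult cells. Pubertal cells pile up at the left end, while adult cells 48 to 188 are spread over both ends and the middle.

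Correlations of levels across cells were computed for the 28 pairs, as a description with no p-value, since cells of a stage can share a sort, a chip and a library batch. All 6 basal pairs and all 6 luminal pairs were positive in each group. In puberty the median Spearman's rho was 0.43 for basal, 0.65 for luminal and -0.33 for the 16 mixed pairs (n = 171 cells). In adult cells 48 to 188 the medians were 0.48, 0.54 and -0.38 (n = 107), and in the other adult cells 0.52, 0.67 and -0.25 (n = 45). All mixed pairs were negative except Krt5 with Krt7 in the other adult cells, at 0.03.

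Among partners, Krt5 with Krt14 gave rho of 0.67 in puberty, 0.60 in adult cells 48 to 188 and 0.65 in the others, and Krt8 with Krt18 gave 0.75, 0.60 and 0.75. Krt14 with Krt17, which are both type I, gave 0.62, 0.73 and 0.78, so these genes of the same type were correlated about as highly as the partners. Krt8 with Krt19 gave 0.74, 0.48 and 0.79. Krt15 had the weakest correlations of the basal genes, from 0.30 to 0.41 in puberty. The most negative mixed pair was Krt17 with Krt19 in puberty (-0.44) and Krt14 with Krt18 in adult cells 48 to 188 (-0.62).

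Correlations were also taken within the marker classes, where lineage varies less. Among the 51 pubertal basal-marker cells, rho was 0.68 for Krt8 with Krt18, 0.37 for Krt5 with Krt14 and 0.10 for Krt14 with Krt18. Among the 77 luminal-marker cells, Krt8 with Krt18 gave 0.38. In the 76 basal-marker cells of the adult run 48 to 188, Krt8 with Krt18 gave 0.45 and Krt14 with Krt18 gave -0.36, against 0.81 and 0.10 in the 22 other adult ones. Over all pubertal cells, the difference in marker share correlated at 0.72 with Krt14, 0.63 with Krt5, 0.56 with Krt17 and 0.32 with Krt15, and at -0.64 with Krt18 and Krt19, -0.58 with Krt8 and -0.52 with Krt7. Correlation with depth before thinning was between -0.26 and 0.28 for the 8 genes in puberty.

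**Figure D5:**
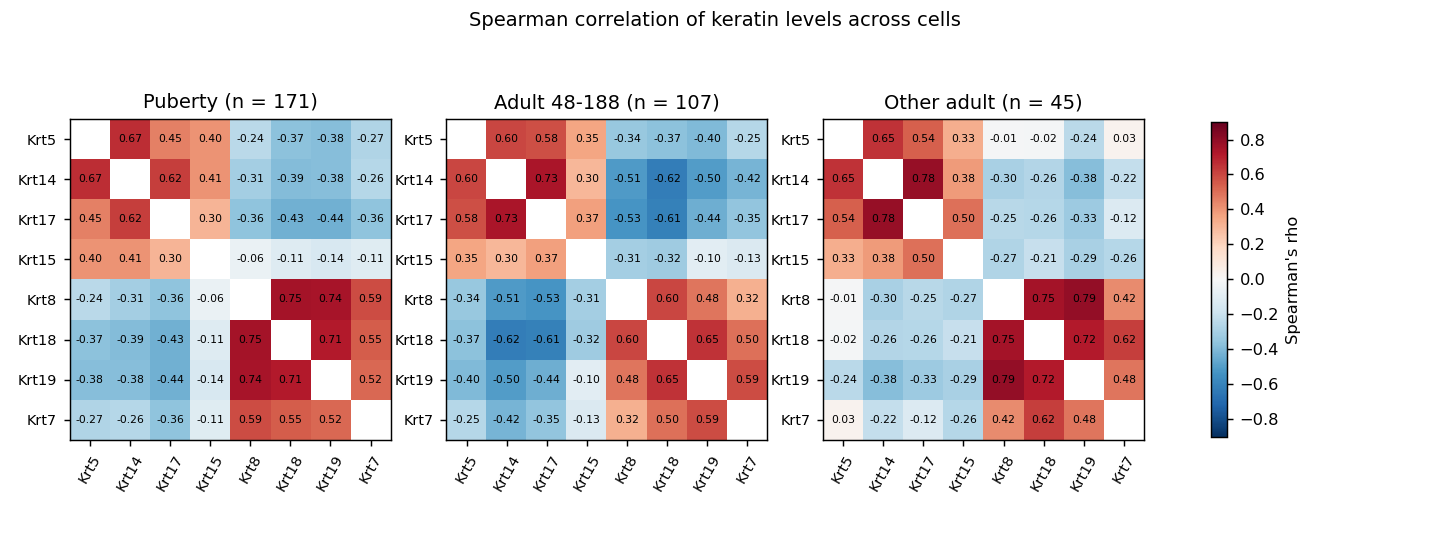
Spearman's rho between the levels of each pair of keratins across cells, for puberty (n = 171), adult cells 48 to 188 (n = 107) and the other adult cells (n = 45). The basal block and the luminal block are positive in all 3 panels, and the mixed block is negative except for Krt5 with Krt7 (0.03) in the other adult cells.

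For each keratin, the genes with the most similar levels across cells were ranked by the mean of rho over both stages, among 4006 genes detected in 20% or more of the cells in both stages. Krt14 was most like Acta2 (0.79), Tagln (0.78) and Cnn1 (0.75), all genes of the contractile machinery, and Krt5 was most like Acta2 (0.68), Krt14 (0.67) and Tagln (0.65). Krt17 was most like Krt14 (0.71), Apoe (0.69), a lipid carrier gene, and Tagln (0.68). Krt8, Krt18 and Krt19 were each most like the other two, with means from 0.65 to 0.70, followed by Cldn4 (0.52), a tight junction gene, for Krt8, Clu (0.61) for Krt18 and Prlr (0.58), the prolactin receptor gene, for Krt19. Krt7 was most like Wfdc2 (0.56), AW112010 (0.54) and Prlr (0.54). Krt15 had no close neighbour, with Kbtbd2 (0.45), Pros1 (0.42) and Krt5 (0.41) first.

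Genes of the junctions and linkers that anchor keratin filaments (desmosome, hemidesmosome and plakin genes), with the non-keratin filament gene Vim, were counted from a list of 18, of which 14 reached 20 CPM in a stage. Of these, 3 were past 2-fold higher in puberty, beside 19.9% of all genes, 1 was past 2-fold lower, beside 14.3%, and the median log2 ratio was 0.17. Dsc2, a desmosomal cadherin gene, gave 1.91, Pkp3, a desmosomal plaque gene, 1.32, and Plec, the plectin gene that links filaments to hemidesmosomes, 1.24, all in the same direction against both adult runs. Eppk1, the epiplakin gene, gave -1.83. Between pubertal basal-marker and luminal-marker cells, 4 of the 14 that reached 20 CPM in either class were past 2-fold higher, beside the 25.1% of all genes, and 4 past 2-fold lower, beside 24.7%. Higher in basal-marker cells were Dsc3, Perp (log2 ratio 3.25), Vim (2.88) and Itga6 (1.45), and lower were Pkp2 (-3.99), Itgb4 (-2.60), Ppl (-2.35) and Dsc2 (-1.85). Dsc3 had 282 reads in basal-marker and 1 in luminal-marker cells, a log2 ratio of 5.64 with the prior of 1 CPM used for the others and 8.73 (6.24 to 14.04) without it, and it was detected in 3.51% of pubertal cells. The desmosomal cadherins Dsc3 and Dsc2 thus lay on opposite sides, and so did Itga6 and Itgb4, the subunits of the hemidesmosome integrin.

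Of 46 other keratin genes, 32 had a read and 3 reached 20 CPM in a stage. Krt6a was at 103 CPM in puberty and 42.0 CPM in adults (log2 ratio 1.28), and it was lower in basal-marker than in luminal-marker cells of puberty, at 40.6 and 154 CPM. Krt42 was at 6.55 and 81.3 CPM (-3.45), but its log2 ratio was 1.84 against the other adult cells alone. Krt23 was at 25.0 and 11.6 CPM (1.04).

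Cells with markers of other types were present among those retained. At least 2 of 6 fibroblast markers were detected in 26 pubertal cells, 12 adult cells 48 to 188 and 8 other adult cells, and at least 2 of 4 endothelial markers in 8, 2 and 3. The summed fibroblast markers had medians of 0, 10 and 0 CPM and highest values of 37960, 23800 and 27160 CPM, and none of the 6 was at 0 in a whole group. Without the 46 cells that held 2 fibroblast markers, the median log2 ratio of the basal keratins was -1.69.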

How the data were processed

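Single-cell RNA-seq counts of 221 pubertal and 223 adult cells were used. Per the labels and the study's methods, the authors aligned read pairs to mm10 with Subread and deposited raw counts per Entrez gene and cell from featureCounts (versions are not given in the sources used here). A deposited table of all cells repeats these values and was not used. Of 27179 identifiers, 25275 matched a current RefSeq gene, and genes of the mitochondrial genome (15) and of ribosomal proteins (124) were excluded. Cells under 100000 read pairs or 1500 genes were dropped, and the rest thinned to 100000 read pairs (seed 1). Unmatched identifiers held 1.84% of read pairs. Log2 ratios compare mean CPM per stage plus a prior of 1 CPM, and their intervals are from the raw sums. Each stage is 1 sample, so no test was run. Share intervals are exact Clopper-Pearson and sum intervals exact Poisson, both counting error only. No doublet caller was run, and the authors inspected capture chambers by microscopy. Named genes were the 8 keratins, the 3 genes most like each, and other keratins or associated genes past 2-fold at 20 CPM. The members and lists were chosen with earlier results of these data known. Alternatives were another seed, no thinning, TMM scaling (edgeR 4.0.16), another prior, detection level, class limit, coverage minimum and adult run. Functions were tested on simulated data. Python 3.11.15, numpy 2.4.6 and scipy 1.17.1 were used.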

Additional observations from a re-analysis of the deposited data

Results flagged for a closer look

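Keratin reads were also present in the cells below the coverage minimum, which enter no comparison. Of 50 such pubertal cells, 35 (70%) held at least 1 read of the 8 keratins, and of 71 such adult cells, 53 (74.6%) did. Their medians were 17958.5 and 17018 read pairs. Krt18 was found in 64% (49.2 to 77.1) of these pubertal and 69.0% (56.9 to 79.5) of these adult cells, Krt14 in 34% (21.2 to 48.8) and 62.0% (49.7 to 73.2), and Krt7 in 32% (19.5 to 46.7) and 9.86% (4.06 to 19.3). Among these cells Krt14 was more often found in adult cells and Krt7 in pubertal cells, in counts that were not thinned. The 71 adult cells were not split by label number, and the depth was too low for a comparison with retained cells.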

How the results depend on the processing

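No paired analysis was possible because no replicate number or animal joins the stages. The median log2 ratio of the basal keratins (-1.86) was -1.98 with TMM scaling, -1.79 with a prior of 10 CPM, -2.11 and -1.04 against adult cells 48 to 188 and the other adult cells alone, and -1.69 without cells holding 2 fibroblast markers. That of the luminal keratins (0.35) was 0.23 with TMM, 0.30 and 0.72 against the adult runs, 0.10 with 200000 read pairs and 2500 genes required, and 0.39 with all identifiers in the totals. Among the keratins past 2-fold, only Krt17 turned direction, at 0.27 against the other adult cells. Cells with both kinds of keratin fell to 45.6% in puberty at 10 CPM without thinning and 29.2% at 100 CPM. In adults they were 99.1% and 75.6% in the runs and 63.8% at 100 CPM. Krt8 in basal-marker cells was 54.9% in puberty and 76.5% in adults at 100 CPM, and 98.7% and 77.3% in the adult runs. Krt14 in pubertal luminal-marker cells was 3.75% at 10 CPM without thinning, where markers were also counted from 10 CPM. It was 28.6% counting any unthinned read, and 0% at 100 CPM. The adult median of the mixed pairs (-0.32) was -0.38 and -0.25 in the runs, -0.40 at the stricter coverage and -0.38 without cells holding 2 fibroblast markers. The fibroblast alternative and the counting of markers from 100 CPM were chosen after seeing the data. The other 54 alternative values of these summaries lay within the interval of the reported value, or within 0.05 for correlations. Of the 24 genes named as most like a keratin, 19 stayed among the first 3 when the mean was taken over puberty and both adult runs. Without a minimum level, 19.9% and 13.7% of genes were past 2-fold higher and lower in puberty, and at 1 CPM 25.4% and 17.5%. The cause of these shifts was not tested. Depth limits the low end: 1 read is 10 CPM after thinning, so medians of 10 CPM or less separate no groups.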
